A study of Mus musculus with 8 samples.

Results

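The proteasome genes of inguinal white adipose tissue (ING WAT) were compared between young and adult mice. A gene was a member when its symbol was Psma, Psmb, Psmc, Psmd, Psmf or Psmg followed by a number, or Psme1 to Psme4, with pseudogenes left out. This rule used names and no measured value. It gave 48 genes of the 38384 to which transcripts were assigned, and 210 of the 91969 transcripts. Psmc3ip begins with the same letters but encodes no proteasome subunit, and was kept apart (1.45 to 6.13 FPKM over the mice).

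Poly(A)+ RNA was sequenced from the whole depot of 8 C57BL/6j mice, with 4 at postnatal day 21 (PN21: m1, m49, m138 and m145) and 4 at PN98 (m35, m106, m114 and m125). The labels name no transgene or agent in either group, and each library came from 1 mouse. PN21 is the age of weaning. Weaned mice stayed on the synthetic diet of their dams at first, and only later, up to PN98, received either a standard synthetic diet or a western style diet. Neither the labels nor the text name the diet of the sequenced PN98 mice, so age and diet cannot be told apart here. By the study's design, the mice kept to PN98 were males. The sex of the sequenced PN21 mice is not named, and the 4 Y-linked genes examined were measured in all 8 mice. Xist, the other sex-linked gene examined, was at 0.247 to 0.832 FPKM at PN21 and at 0 to 0.00704 FPKM at PN98. P-values measure the spread between these mice.

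The level of a gene is its FPKM, the number of sequenced fragments corrected for the length of the transcript and the size of the library, summed over its transcripts. Depth is unknown, because the deposited values hold no counts. Fold changes are differences of log2(FPKM + 1), PN98 minus PN21, which understates the change of genes with a low level. In RNA from a whole depot, fewer cells of a type and less RNA per cell cannot be told apart. Adipocyte markers fitted the tissue label: Fabp4, a fatty acid carrier of adipocytes, lay between 10641 and 37466 FPKM. Of 8 adipocyte markers, 7 had a log2 fold change above 0. By limma, 3 passed the test as higher at PN98 (Adipoq, Cidec and Lipe), while 5.36% of all genes passed in either direction. The 12 lymphocyte markers summed to 368 to 886 FPKM at PN21. At PN98 they summed to 752 FPKM in m35 and to 18.4 to 136 FPKM in the other mice, so m35 stood apart from its age, and results that rest on it are given with and without it. None of the 12 markers was at 0 in any mouse. Skeletal muscle markers summed to 67.6 to 399.6 FPKM at PN21 and to 447 to 2738 FPKM at PN98, highest in m106. All 7 had a log2 fold change above 0, and 2 passed the test by limma (Atp2a1 and Actn3). Brown adipocyte markers summed to 3038 to 6459 FPKM at PN21 and to 371 FPKM (m35) to 4228 FPKM at PN98, and 0 of 7 passed the test by limma (3 before adjustment). The part of these markers in the proteasome values was not tested.

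The proteasome degrades proteins that carry ubiquitin chains. Its 20S core is a stack of rings, in which alpha subunits gate the entry and beta subunits hold the proteolytic sites, and its 19S cap recognises, unfolds and feeds in the substrate. In immune cells and under interferon, the catalytic subunits Psmb8, Psmb9 and Psmb10 replace Psmb5, Psmb6 and Psmb7 and give the immunoproteasome, which is known for making peptides for MHC class I. Brown and beige adipocytes are known to depend on proteasome activity, which the transcription factor Nfe2l1 maintains.

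Because subunit genes are known to be controlled through short promoter elements, the promoters were read first. RefSeq promoters (GRCm38.p6) were matched for 40 of the 48 members, and the 250 bases before the start were searched on both strands for 4 short motifs. The core of the antioxidant response element, TGACNNNGC, to which the Nfe2l1 family binds, was found in 5 members (Psmb5, Psmb6, Psmc6, Psmd9 and Psmd12) and in 11.5% of all 27025 promoters. The ETS core, CCGGAA, was found in 17 members against 13.6% of all promoters. It stood in 10 of the 14 matched genes of the 19S cap and in 2 of the 11 matched alpha and constitutive beta genes, a difference that is given as a count with no test. The core of the interferon-stimulated response element, GAAA repeated after any 2 bases, was found in Psmb3, Psmd4 and Psmd9 and in 3.46% of promoters. The gamma-activated site, TTCNNNGAA, which reads the same on both strands, was found in Psmb8 and Psmg1 and in 8.13% of promoters. The motifs are of different letters but can share bases where they meet. A pair of catalytic core genes and a pair of cap genes are shown as the 100 bases before the start with the motif in capitals, the antioxidant element in Psmb5 and Psmb6 and the ETS core in Psmc6 and Psmd6. The stretches are chr14:54618023-54618122 (minus strand) for Psmb5, chr11:70525257-70525356 (plus strand) for Psmb6, chr14:45329688-45329787 (plus strand) for Psmc6 and chr14:14120985-14121084 (minus strand) for Psmd6. Each is printed 5′ to 3′ on the strand of its gene, and the motif begins 20, 9, 64 and 6 bases before the start, respectively.
Psmb5: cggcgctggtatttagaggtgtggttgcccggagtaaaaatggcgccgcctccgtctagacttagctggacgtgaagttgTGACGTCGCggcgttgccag
Psmb6: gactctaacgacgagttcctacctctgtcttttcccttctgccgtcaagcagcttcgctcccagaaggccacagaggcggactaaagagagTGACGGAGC
Psmc6: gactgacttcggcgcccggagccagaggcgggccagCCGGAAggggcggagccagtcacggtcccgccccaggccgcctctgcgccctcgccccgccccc
Psmd6: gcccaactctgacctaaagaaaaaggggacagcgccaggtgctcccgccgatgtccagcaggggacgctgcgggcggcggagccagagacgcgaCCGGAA
These 4 genes had log2 fold changes of -0.25, -0.14, 0.03 and -0.39, in the order shown, and none passed the test described next. A match is a description of letters in a window, and no binding was measured.

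Of the 48 members, 46 reached a mean of 1 FPKM over the mice and were tested. The exceptions were the tissue-restricted Psma8, an alpha subunit of the testis, at 0.04 to 0.42 FPKM, and Psmb11, the thymus subunit, which was listed at 0 to 0.03 FPKM. The tested members were abundant. Their median level was 78.3 FPKM against 10.3 FPKM over all genes tested, and 20 of the 46 lay in the top 10% of genes. Apart from Psmc5 (2.83 FPKM), the means of core and cap genes lay between 49.02 FPKM (Psmd11) and 512 FPKM (Psmb4), whereas those of the assembly chaperones lay between 9.51 FPKM (Psmd9) and 26.4 FPKM (Psmg4).

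**Figure D1:**
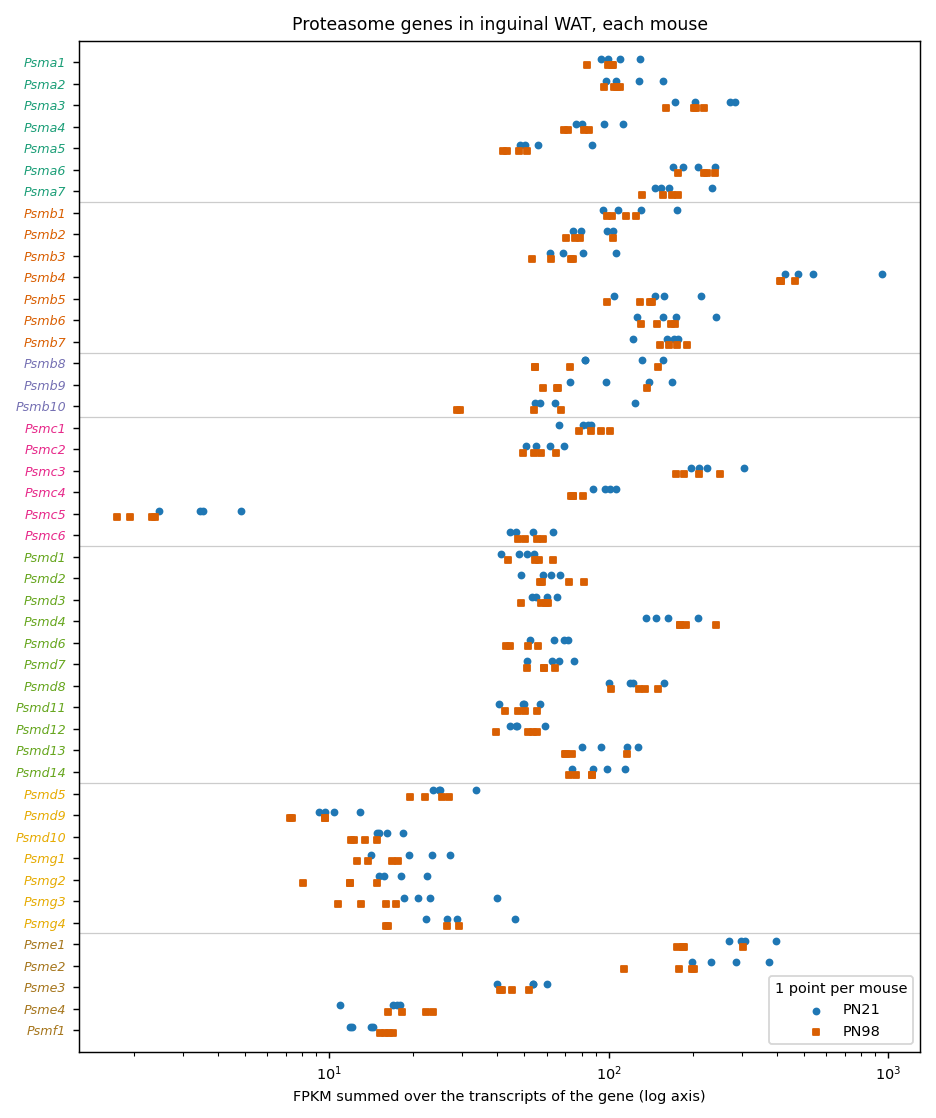
Level of each tested proteasome gene in each mouse, as summed FPKM on a log axis, with circles for the 4 PN21 mice and squares for the 4 PN98 mice. Genes are grouped by subcomplex from the alpha ring at the top to the activators and the inhibitor at the bottom, and for most genes the points of the ages overlap.

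No proteasome gene changed between PN21 and PN98 at a Benjamini-Hochberg adjusted p under 0.05. By limma over 16011 genes, 5.36% of all genes passed this threshold, and 0 of the 46 members did. The lowest adjusted p of a member was 0.122 (Psmc5). Before adjustment, 7 members had a p under 0.05, all lower at PN98 (Psmc4, Psmc5, Psmd6, Psmg2, Psmg3, Psme1 and Psme2). That is a smaller share than the 27.3% of all genes that had one in either direction, or the 19.1% that had one and were lower at PN98. The fold changes of the members were centred where those of all genes were. Their median was -0.20 against -0.21 over all genes, and 35 of the 46 were below 0 against 67.0% of all genes. With scaling by the median of ratios, which moved the median of all genes to -0.02, the members had a median of 0.03 and 20 of the 46 were below 0. With scaling to the same summed FPKM of nuclear genes, the median of all genes was 0.01 and that of the members 0.07. None of the 7 genes named above kept an unadjusted p under 0.05 by limma with scaling by the median of ratios. In that fit 2 members had one, against 4072 of the 16011 genes. Both lay among Psme3, Psme4 and Psmf1 and were higher at PN98, the opposite direction to the 7 genes above. The lowest adjusted p of a member in that fit was 0.0758.

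The standard error of a member's log2 fold change was 0.13 to 0.37, with a median of 0.18 against 0.24 over all genes. For 38 of the 46 members, the 95% confidence interval lay between -1 and 1, and for 39 it covered 0. The values of PN98 lay wholly below those of PN21 for 5 members (Psmc4, Psmc5, Psmd10, Psmg2 and Psmg3) and wholly above them for 1 (Psmf1). Such a separation was found for 16.1% of all genes in either direction, so the 6 members are not above the background. Of the 46 members, 24 had their highest value in the PN21 mouse m145, while 15 had their lowest in m106 and 10 in m35. The summed FPKM of nuclear genes was 1.26 times the mean of the mice in m145, 0.864 times in m106 and 1.03 times in m35. These counts were not set against those of all genes.

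**Figure D2:**
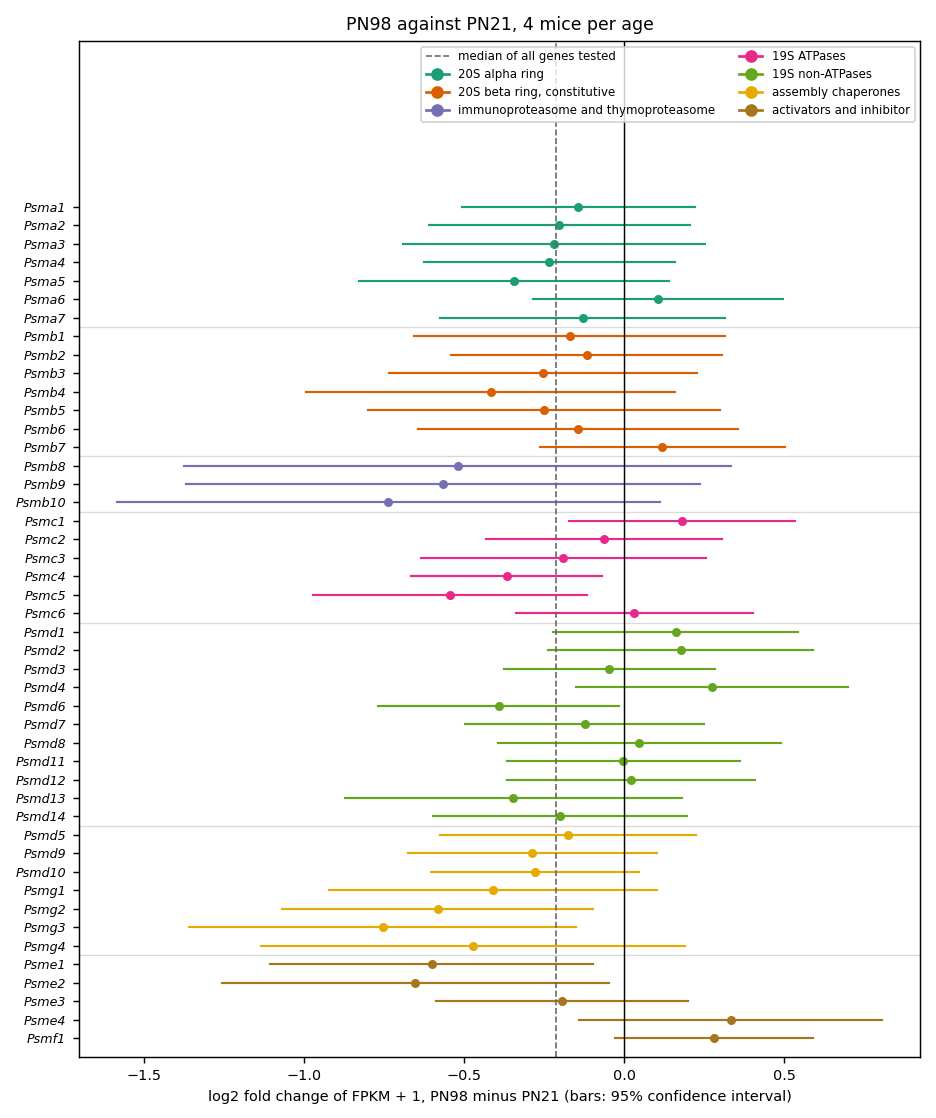
Log2 fold change of FPKM + 1, PN98 minus PN21, for the 46 tested members, as points with 95% confidence intervals from limma, coloured by subcomplex. The dashed line is the median of all genes tested (-0.21). The immunoproteasome subunits, Psme1 and Psme2 and 6 of the 7 chaperones lie to its left, as do 6 of the 14 constitutive core genes and 4 of the 17 cap genes. The points of the cap genes lie between -0.54 and 0.27.

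The constitutive catalytic subunits were among the more abundant members, and none of the 3 passed the test. Psmb5 carries the chymotrypsin-like site and lies at chr14:54614119-54618022 (GRCm38, gene bounds of GENCODE vM21, as for the genes that follow). It was at 158, 146, 104 and 214 FPKM at PN21, in the order m1, m49, m138 and m145 that is used throughout, and at 98.3, 130, 143 and 140 FPKM at PN98, in the order m35, m106, m114 and m125. The groups overlapped, and the log2 fold change of -0.25 (SE 0.24) did not pass the test. Psmb6, the caspase-like subunit (chr11:70525367-70527858), was at 157, 174, 126 and 242 FPKM at PN21 and at 148, 130, 173 and 167 FPKM at PN98. The difference of -0.14 (SE 0.22) rested on the high value of m145, and it was 0.02 without that mouse. Psmb7, the trypsin-like subunit (chr2:38588036-38644087), was at 162, 172, 123 and 178 FPKM at PN21 and at 153, 165, 176 and 191 FPKM at PN98. Its log2 fold change was 0.12 (SE 0.17). It was -0.11 when only protein-coding transcripts were counted. The other listed transcript of Psmb7, a retained intron, was at 2.12e-06 FPKM in m145 and at 30.9 to 59.6 FPKM in the other mice. The coding transcript was at 121, 137, 91.7 and 178 FPKM at PN21 and at 101, 117, 129 and 131 FPKM at PN98. The change of sign thus depends on how the level of m145 was split between the transcripts.

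Over the whole rings, which build the gate and the walls of the core, 6 of 7 alpha genes and 6 of 7 constitutive beta genes were below 0, with medians of -0.20 and -0.17. Neither median stayed below 0 with scaling by the median of ratios (0.03 and 0.06). The lowest alpha gene was Psma5, at 50.2, 55.7, 48.0 and 87.3 FPKM at PN21 and 47.8, 43.4, 51.2 and 41.8 FPKM at PN98 (log2 fold change -0.34, adjusted p = 0.311). The values of m49 and m145 lay above all PN98 mice. The highest was Psma6, at 185, 240, 170 and 208 FPKM at PN21 and 178, 225, 220 and 240 FPKM at PN98. Its log2 fold change of 0.11 became -0.06 when only protein-coding transcripts were counted. Among the beta genes, Psmb4, a structural subunit, was the lowest. Its summed level was 474, 539, 429 and 952 FPKM at PN21 and 411, 415, 465 and 414 FPKM at PN98, and its log2 fold change was -0.42 (adjusted p = 0.302). Again m145 lay far above all other mice, and without it the log2 fold change was -0.17.

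The immunoproteasome subunits had the lowest median of the core groups, at -0.57, and all 3 were below 0, also with both other scalings. None passed the test. Psmb8 and Psmb9, which replace Psmb5 and Psmb6, are neighbours in the MHC region (chr17:34197721-34201454 and chr17:34181987-34187764). Psmb8 was at 82.2, 82.2, 132 and 157 FPKM at PN21. At PN98 it was at 150 FPKM in m35 and at 54.6, 72.8 and 54.6 FPKM in m106, m114 and m125. The last 3 mice lay below all PN21 mice, while m35 lay among the highest. The log2 fold change was -0.52 (95% interval -1.37 to 0.34, adjusted p = 0.382). Psmb9 was at 72.9, 98.1, 139 and 169 FPKM at PN21 and at 137, 58.2, 65.6 and 65.7 FPKM at PN98 (log2 fold change -0.57, adjusted p = 0.314). It had the same order, m35 high and the other PN98 mice under every PN21 mouse. Psmb10, which replaces Psmb7 (chr8:105935735-105938444), was at 56.9, 54.4, 64.0 and 124 FPKM at PN21 and at 67.3, 28.7, 54.2 and 29.4 FPKM at PN98. Its fold change was 0.60 on the linear scale, the lowest of the core genes (log2 -0.74, 95% interval -1.58 to 0.11, adjusted p = 0.227). Here m114 was close to the lowest PN21 mouse, and m35 was above all PN21 mice but m145.

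Without m35, the log2 fold changes of Psmb8, Psmb9 and Psmb10 lay between -0.96 and -0.84, and none of the 3 passed the test, while 22.3% of all genes did. All 3 had an unadjusted p under 0.05 in that fit, as did 38.8% of all genes. Among the PN98 mice, m35 was the highest in the lymphocyte markers as in these 3 genes, whereas m106 had the second highest marker sum and the lowest value of all 3 genes. Their 12 genes were all below 0, with a median log2 fold change of -2.22. By limma 0 of the 12 passed, and 7 had an unadjusted p under 0.05. Their part in the immunoproteasome values was not tested. The summed macrophage markers also had their highest value in m35, at 827 FPKM against 187 to 463 FPKM in the other PN98 mice and 411 to 673 FPKM at PN21.

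The exchange of catalytic subunits was read within each library as the ratio of the inducible to the constitutive gene, which does not depend on scaling. Psmb8 was at 0.521, 0.561, 1.26 and 0.735 times the level of Psmb5 at PN21. At PN98 it was at 1.52 times in m35 and 0.421, 0.508 and 0.389 times in the others. The inducible gene was thus the lower one in 6 of the 8 mice, and m138 and m35 were the exceptions. They stayed so when only coding transcripts were summed (1.19 and 1.44 times). With the most abundant transcript of each gene alone, Psmb8 was the lower one in all 8 mice (0.563 times in m138 and 0.662 times in m35). The mean log2 ratio at PN21 was -0.47 ± 0.57 (SD, n = 4), and the PN98 mean was -0.74 ± 0.91 (SD, n = 4). The difference of -0.27 did not pass a two-sided exact permutation test over 70 splits (p = 0.543). The log2 ratio of Psmb9 to Psmb6 had a PN21 mean of -0.57 ± 0.53 (SD, n = 4) and a PN98 mean of -0.995 ± 0.594 (SD, n = 4) (difference -0.42, exact permutation p = 0.314). The log2 ratio of Psmb10 to Psmb7 had means of -1.14 ± 0.52 (SD, n = 4) and -1.999 ± 0.696 (SD, n = 4), the largest of the differences at -0.86 (exact permutation p = 0.114, 0.343 adjusted over the 3 ratios). Psmb10 was the lower gene of its pair in all 8 mice. The smallest p that 4 mice against 4 allow is 0.0286. Without m35 the differences were -0.72, -0.72 and -1.13, with exact permutation p of 0.114, 0.0571 and 0.0571, or 0.114, 0.0857 and 0.0857 adjusted over the 3 ratios.

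**Figure D3:**
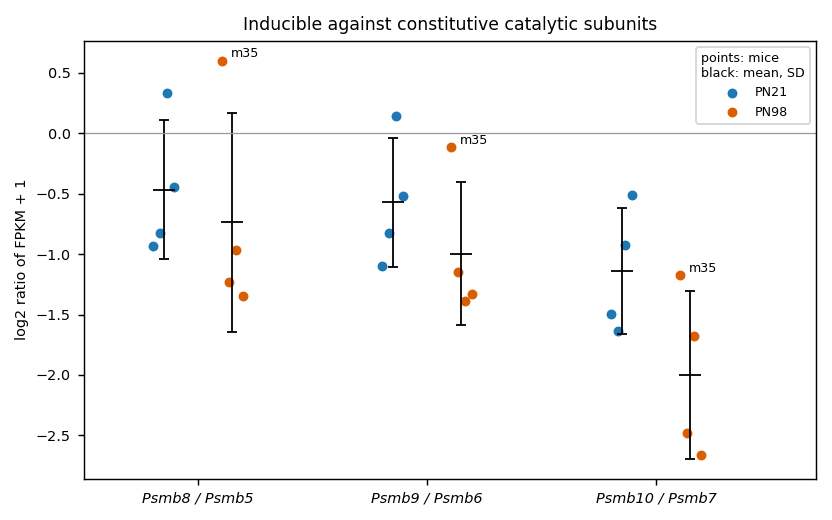
Log2 ratio of FPKM + 1 of each inducible catalytic subunit to its constitutive counterpart, with 1 point per mouse and the mean and SD of the 4 mice of each age in black. The PN98 mouse m35 is the highest of its age in all pairs, and the mean difference is largest for Psmb10 to Psmb7 (-0.86).

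The activators bind the ends of the core in place of the 19S cap. Psme1 and Psme2 form PA28, which is induced by interferon and acts with the immunoproteasome, and they gave the lowest values of this group. Psme1 (chr14:55578123-55581529) was at 271, 307, 298 and 396 FPKM at PN21 and at 303, 185, 176 and 187 FPKM at PN98. The PN98 mice other than m35 lay below every PN21 mouse, whereas m35 lay within the PN21 range. The log2 fold change was -0.60 (SE 0.22, adjusted p = 0.137). Without m35 it was -0.78, and Psme1 then passed the threshold (adjusted p = 0.0208), as 22.3% of all genes did. It also passed without both m35 and m145 (-0.67, adjusted p = 0.0282, with 15.9% of all genes passing). Without m35 under median of ratios scaling, Psme1 did not pass. With all mice, Psme1 and Psme2 had a median log2 fold change of -0.40 with median of ratios scaling and -0.36 with nuclear scaling. Neither gene had an unadjusted p under 0.05 by limma in those fits. Psme2 (chr14:55587441-55591113) was at 199, 286, 233 and 376 FPKM at PN21 and at 198, 113.7, 201 and 179 FPKM at PN98 (log2 fold change -0.65, SE 0.26, adjusted p = 0.162). The groups overlapped only in that m114 lay above m1. Without m35, its log2 fold change was -0.73, and it did not pass the threshold.

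**Figure D4:**
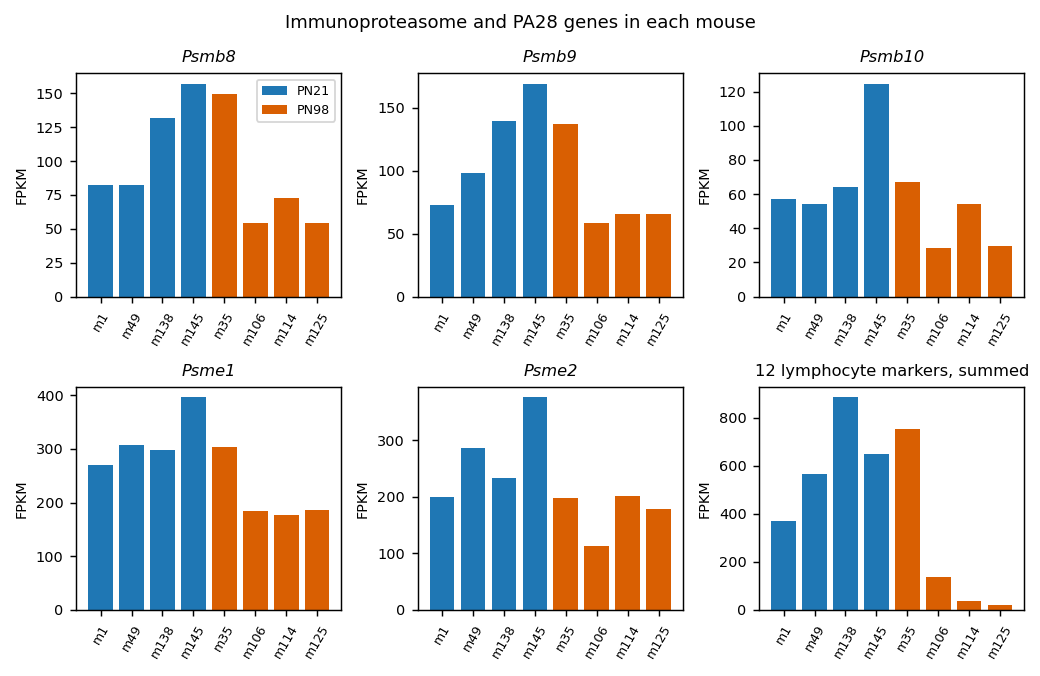
FPKM of the immunoproteasome and PA28 genes in each mouse, with PN21 in blue and PN98 in orange, beside the summed FPKM of 12 lymphocyte markers. In Psmb8, Psmb9 and Psme1, as in the lymphocyte markers, m35 lies among the PN21 mice while m106, m114 and m125 lie below all of them.

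The other activators and the inhibitor had log2 fold changes between -0.19 and 0.33. Psme3 encodes PA28 gamma, a nuclear activator, and was at 53.8, 53.6, 60.2 and 39.8 FPKM at PN21 and at 45.1, 51.8, 41.6 and 41.0 FPKM at PN98. The groups overlapped (log2 fold change -0.19, 95% interval -0.59 to 0.20). Psme4 encodes PA200, an activator with a role in chromatin, and was at 17.5, 17.9, 17.0 and 10.9 FPKM at PN21 and at 18.3, 22.2, 23.6 and 16.2 FPKM at PN98. Its log2 fold change of 0.33 was the highest of all members, and m145 lay below all other mice. Psmf1 encodes the inhibitor PI31. It was at 14.4, 12.1, 14.2 and 11.8 FPKM at PN21 and at 16.3, 15.9, 17.0 and 15.2 FPKM at PN98, so every PN98 mouse lay above every PN21 mouse. The difference was small and did not pass the test (log2 fold change 0.28, 95% interval -0.03 to 0.59, adjusted p = 0.211). With scaling by the median of ratios, the log2 fold changes of the activators and the inhibitor reached 0.55. None passed in that fit, where the lowest adjusted p of this group by limma was 0.0758.

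The 19S ATPases, which form the unfolding ring, had a median log2 fold change of -0.13 against -0.21 for all genes, and 4 of 6 were below 0. With median of ratios and nuclear scaling their medians turned to 0.10 and 0.14, with 2 of 6 below 0 in each, against -0.02 and 0.01 for all genes. The lowest was Psmc5 at 3.46, 3.54, 2.46 and 4.83 FPKM at PN21 and 2.32, 2.38, 1.74 and 1.94 FPKM at PN98. All PN98 values lay below all PN21 values, and the log2 fold change was -0.54 (SE 0.19, adjusted p = 0.122). This level belongs to a single transcript annotated for nonsense-mediated decay. The coding transcript of Psmc5 was not analysed here, so the value is not that of the functional mRNA. Psmc4 did not overlap either, at 88.2 to 105.9 FPKM at PN21 against 73.2 to 80.9 FPKM at PN98 (log2 fold change -0.37, 95% interval -0.67 to -0.07). It passed when genes with low values were not filtered out (adjusted p = 0.0348, with 3.67% of all genes passing). The highest ATPase was Psmc1, at 80.7, 84.1, 66.5 and 86.5 FPKM at PN21 and at 78.3, 86.6, 101 and 94.3 FPKM at PN98, with overlapping groups and a log2 fold change of 0.18.

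The 19S non-ATPases, which form the base scaffold and the lid, had 6 of 11 below 0 and a median of -0.002, against -0.21 for all genes. With median of ratios and nuclear scaling, the medians turned to 0.22 and 0.26, and 2 of 11 were below 0 in each. None of the 11 passed the test in any of the 3 fits. Psmd6, a lid subunit, was the lowest. It was at 63.6, 71.5, 52.3 and 69.4 FPKM at PN21 and at 44.3, 51.4, 55.9 and 42.9 FPKM at PN98, and only m138 and m114 overlapped (log2 fold change -0.39, adjusted p = 0.171). Psmd4, a ubiquitin receptor, was the highest. It was at 163, 148, 137 and 209 FPKM at PN21 and at 180, 180, 189 and 243 FPKM at PN98, so all PN98 mice lay above the PN21 mice other than m145 (log2 fold change 0.27, 95% interval -0.15 to 0.70). The deubiquitinase Psmd14, which removes the chain from the substrate, was at 73.9 to 114.4 FPKM at PN21 and 72.2 to 87.3 FPKM at PN98. When m35 was left out and the libraries were scaled by the median of ratios together, the scaffold genes Psmd1 and Psmd2 and the inhibitor gene Psmf1 passed as higher at PN98 (log2 fold changes 0.59, 0.58 and 0.58, with 18.8% of all genes passing).

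The assembly chaperones help to build rings and caps and are absent from the finished particle. All 7 were below 0 with a median log2 fold change of -0.41, against -0.21 for all genes, but Psmd5 turned with either other scaling (0.05 and 0.08). None passed the test, and Psmg2 and Psmg3 had an unadjusted p under 0.05, though no chaperone had one with either other scaling. Psmg3, part of a chaperone pair for the alpha ring, was the lowest of all 46 members. It was at 20.9, 23.0, 18.5 and 39.8 FPKM at PN21 and at 16.0, 10.8, 17.4 and 13.0 FPKM at PN98. Every PN98 mouse lay below every PN21 mouse, and the log2 fold change was -0.75 (95% interval -1.36 to -0.15, adjusted p = 0.127). Psmg2, partner of Psmg1 in the other alpha ring chaperone, was at 15.03, 18.1, 15.8 and 22.3 FPKM at PN21 and at 14.8, 11.9, 11.9 and 8.06 FPKM at PN98. It passed only when m35 was left out or when the mice were weighted by their spread (log2 fold changes -0.70 and -0.50, adjusted p 0.0497 and 0.0457). Weighting also let Psme1, Psme2, Psmg3 and Psmc4 pass, together with 28.8% of all genes. Psmd5, a chaperone of the cap, was the least changed at 23.4, 33.5, 25.0 and 24.7 FPKM at PN21 and 22.1, 19.5, 25.3 and 26.9 FPKM at PN98 (log2 fold change -0.17). Markers of dividing cells were also lower at PN98. They summed to 91.2 to 149 FPKM at PN21 and 8.56 to 36.7 FPKM at PN98. All 8 had a log2 fold change below 0, and 7 passed the test, against 5.36% of all genes. Within PN21, m145 had the highest chaperone sum (184 FPKM) and a sum of dividing cell markers of 111 FPKM. The lowest chaperone sum was that of m1 (126 FPKM), which had the highest sum of dividing cell markers (149 FPKM). At PN98, m35 and m114 lay above m106 and m125 in both sums. The part of the dividing cell markers in the chaperone values was not tested.

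The level of a gene was not always the level of its coding transcripts. Of the 210 transcripts of the members, 89 were annotated as protein-coding and 70 as retained introns. For 27 of the 46 tested members, over 90% of the summed FPKM came from coding transcripts, and for 6 it was under 50%. The lowest shares above 0 were those of Psme2 (1.0%) and Psmb4 (3.33%), followed by Psme1 (37.1%), Psmc3 (37.9%) and Psma5 (39.8%). Psmb4 was thus the highest gene of the set by its sum (410.6 to 952 FPKM), but its coding transcript lay at 13.4 to 26.9 FPKM. Its sum came mainly from retained-intron transcripts of 292 and 666 bases. The summed level of Psme2 came mainly from retained-intron transcripts of 490 and 511 bases. Counting coding transcripts only, 0 of 45 members passed the threshold by limma, against 8.83% of genes. Before adjustment, 3 members had a p under 0.05 in that fit, against 3464 of the 11772 genes. Psme1 and Psme2 then had a median log2 fold change of -0.42, the immunoproteasome subunits one of -0.61 and the chaperones one of -0.46. The coding transcripts of Psme2 lay at only 0.749 to 4.09 FPKM, and its groups overlapped.

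**Figure D5:**
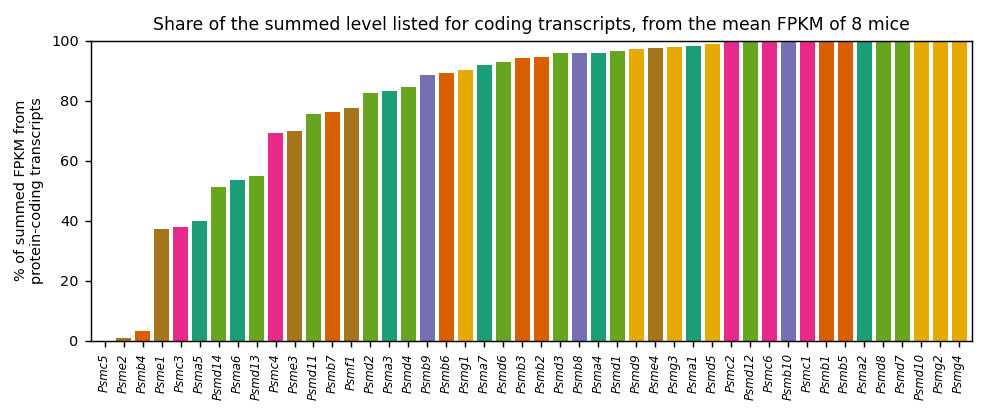
Percent of each gene's summed FPKM that was listed for protein-coding transcripts, from the mean FPKM of 8 mice, with bars coloured by subcomplex as in the plot of fold changes. Psmc5, Psme2 and Psmb4 lie at 0, 1.0 and 3.33%, and 27 of the 46 genes lie above 90%.

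Single transcripts were tested with the design the study used, on log2 FPKM of 23108 transcripts that were above 0 in every mouse and had a mean above 2 FPKM at PN21 or PN98. No member transcript passed, as 0 of 113 had an adjusted p under 0.05 by limma, against 1.38% of all transcripts. Before adjustment, 15 of them had a p under 0.05, 13 of these lower at PN98, against 21.8% of all transcripts. The lowest adjusted p was that of a minor coding transcript of Psmd4 (ENSMUST00000117355). It was at 3.53, 5.07, 4.39 and 5.40 FPKM at PN21 and at 1.03, 0.338, 0.482 and 3.05 FPKM at PN98, with all PN98 values below all PN21 values (log2 fold change -2.42, adjusted p = 0.120). The main coding transcript of the same gene, ENSMUST00000071664, lay at 43.6 to 60.2 FPKM at PN21 and 58.4 to 90.2 FPKM at PN98 (log2 fold change 0.45, adjusted p = 0.237). The member transcripts had a median log2 fold change of -0.22, close to the -0.24 of all transcripts.

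The genes around the proteasome were read from lists of known function. None of 13 other components and regulators passed the test (2 before adjustment), and their median log2 fold change was 0.05. Among them, Pomp, the maturation factor of the core, was at 140 to 215 FPKM at PN21 and 144.9 to 198 FPKM at PN98. Nfe2l1, the transcription factor for subunit genes, was at 219, 164, 154 and 225 FPKM at PN21 and at 237, 280, 290 and 254 FPKM at PN98. Its groups did not overlap, but the difference did not pass the test (log2 fold change 0.49, adjusted p = 0.134). None of 9 genes of ubiquitin supply passed (3 before adjustment), with a median of -0.12. The polyubiquitin gene Ubb was at 0.59, whereas Rps27a, which encodes ubiquitin fused to a ribosomal protein, was at -0.89 (log2 fold changes, adjusted p 0.140 and 0.134).

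Of the 10 genes for peptide presentation by MHC class I, 1 passed. H2-D1, a class I heavy chain, rose from 561, 513, 698 and 603 FPKM at PN21 to 1261, 931, 1245 and 843 FPKM at PN98 (log2 fold change 0.84, adjusted p = 0.045). All PN98 mice lay above all PN21 mice, but leaving out m1, m49, m138, m145, m106 or m114 ended the call (adjusted p 0.0733 to 0.118). B2m, its partner chain, was at 1038 to 1495 FPKM at PN21 and 1620 to 2903 FPKM at PN98 (log2 fold change 0.83, adjusted p = 0.081). The peptide transporter genes Tap1 and Tap2, which lie beside Psmb8 and Psmb9, were at -0.27 and -0.22 and did not pass.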

How the data were processed

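The deposited tables hold 1 FPKM value per Ensembl transcript and mouse, which the authors made with CASAVA 1.8.2, FastQC, STAR 2.3.0 on mm10 and Cufflinks 2.1.1 on a Gencode annotation. In the deposited table, 40498 transcripts had lost decimal marks. These were restored from the SD and average the authors gave per transcript (over 10 columns, 8 of them the mice). All 4970 restored transcripts that a second deposited table holds were equal to it, and 110 open ones, none of a member, were left out. The authors' fold changes and p-values were not used.

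FPKM were summed per gene by GENCODE vM21. Genes with a mean of at least 1 FPKM were tested on log2(FPKM + 1) with limma 3.58.1 (R 4.3.3), with no covariates, and Benjamini-Hochberg adjustment at 0.05 over all genes. The limma procedure was tried on simulated data with independent normal noise in each gene. Correlated genes, a mouse that stands apart or a shift of scale between libraries were not simulated, so it does not cover them. Ratios were tested by exact permutation over all splits of the mice, with the adjustment over the 3 ratios by scipy 1.17.1. Depth is unknown, so no counting error is given.

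Named genes were the catalytic subunits, the activators, the inhibitor, the tissue-restricted subunits, and the highest and lowest gene of each subcomplex. Psmc4, Psmg2, Psmd14, Psmd1, Psmd2, the promoter set, the transcripts and the named list genes were added after their values were seen. Members and lists were chosen with earlier results of these data known. Paaf1, Cd79a and Cd79b were not analysed here. Alternatives were another pseudocount, no filter, the top transcript, coding transcripts only, 2 scalings, mouse weights and leaving out mice.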

Additional observations from a re-analysis of the deposited data

Results flagged for a closer look

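In 6 of the 98 sets of 4 mice examined, 1 mouse lay far from the other 3 of its age, which is close to the 1 in 20 that chance gives. Values are log2(FPKM + 1), with FPKM after them. At PN98, m35 was the highest for Psmb9 (7.11, or 137 FPKM against 58.2 to 65.7 FPKM) and for Psme1 (8.25, or 303 FPKM against 176 to 187 FPKM). m35 is also the PN98 mouse with the high lymphocyte markers. At PN98, m114 was the highest for Psmb4 (8.86, or 465 FPKM against 410.6 to 415 FPKM) and for Psmd13, a lid subunit (6.87, or 116 FPKM against 69.6 to 73.8 FPKM). m125 was the highest for Psmd4 at PN98 (7.93, or 243 FPKM against 180 to 189 FPKM). At PN21, m145 was the lowest for Psme4 (3.57, or 10.9 FPKM against 17.0 to 17.9 FPKM).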

How the results depend on the processing

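No paired analysis was possible because the mouse numbers differ between the ages and the replicate numbers only name the mice. The count of 0 members past the threshold became 1 with no filter and without both m35 and m145, 5 with mouse weights and 3 without m35 under median of ratios scaling; leaving out 1 mouse gave 0 to 2, the 2 without m35. Leaving out m35 and m145 together, m35 with median of ratios scaling, and counting coding transcripts only were chosen after seeing the data. The median log2 fold change of the members (-0.20) became 0.031 with median of ratios scaling, 0.067 with nuclear scaling and 0.15 with median of ratios scaling without m35, and -0.27 to -0.11 when leaving out 1 mouse. All genes past the threshold (858) became 4609 with mouse weights, 2548 without m35 and m145, 3012 without m35 under median of ratios scaling, and 194 to 3566 when leaving out 1 mouse. Genes of the pathway lists (1) became 0 with pseudocount 0.1, 3 with median of ratios scaling, 2 with nuclear scaling, 6 with mouse weights, 8 without m35 under median of ratios scaling, and 0 to 3 when leaving out 1 mouse. Genes of the cell type lists (13) became 8 with no filter, 32 with mouse weights, 21 without m35 and m145, 30 without m35 under median of ratios scaling, and 5 to 29 when leaving out 1 mouse. Member transcripts (0) became 2 with mouse weights and 0 to 2 when leaving out 1 mouse. All transcripts (320) became 109 with the level asked at both ages, 551 with median of ratios scaling, 1575 with mouse weights, and 48 to 1755 when leaving out 1 mouse. Leaving out 1 mouse moved the ratio differences to -0.72 to -0.004 (Psmb8 to Psmb5), -0.72 to -0.18 (Psmb9 to Psmb6) and -1.13 to -0.64 (Psmb10 to Psmb7). Log2 fold changes changed sign for Psmb7 (-0.11 by the top or by coding transcripts) and Psma6 (-0.081 and -0.055). With median of ratios scaling, Psmb6 (0.085), Psme3 (0.033) and Psmd5 (0.048) turned, and with nuclear scaling Psmb5 (0.017), Psmb6 (0.12), Psme3 (0.068) and Psmd5 (0.083). Without m35 and m145, Psmb5 (0.037) and Psmb6 (0.041) turned, and without m35 under median of ratios scaling Psmb5 (0.20), Psmb6 (0.20), Psme3 (0.13) and Psmd5 (0.17). Leaving out 1 mouse gave -0.42 to -0.083 for Psmb5 and -0.29 to 0.024 for Psmb6. None of these had passed the test, and the cause was not tested. Depth is not known, and 4 mice per age limit what could be called.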
